A study of Mus musculus with 2 samples.

Results

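This account covers 33 genes of synaptic adhesion in embryonic mouse neocortex, taken by symbol from the 33938 genes of the deposited tables. All 33 were found. They are the neurexins Nrxn2 and Nrxn3, the neuroligins Nlgn1 and Nlgn3, Lrrtm1 to Lrrtm4, and Il1rapl1, Il1rapl2 and Il1rap. The LAR-type receptor phosphatases Ptprd, Ptprs and Ptprf, the Slitrk genes Slitrk1, Slitrk2, Slitrk4 and Slitrk5, and Flrt1 to Flrt3 follow. The latrophilins Adgrl1 to Adgrl3, the teneurins Tenm1 to Tenm4, and the contactin-associated genes Cntnap2, Cntnap4, Cntnap5a, Cntnap5b and Cntnap5c complete the list. The rule reads symbols, not levels.

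Nuclei of dissected neocortex were sequenced with 10x Genomics 3' version 3 chemistry in a study of menin, the product of Men1, and EphA4 in late-born neurons. One library carried the genotype label MEN1-NCKO and the other the label MEN1-F/F. The sources used here do not give embryonic age, embryos per library, the Cre line or the targeted part of Men1. Each label has 1 library, so the spread between replicates is unknown, no test was run, and every value compares these libraries, not the genotypes.

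Synaptic adhesion proteins face each other across the cleft and help to choose, build and tune synapses. Neurexins and LAR-type phosphatases sit mainly on the axon side, where they bind neuroligins, LRRTM, IL1RAPL and SLITRK proteins on the dendrite side. FLRT proteins and teneurins bind latrophilins, and several of these genes act in cell migration and axon guidance in embryonic cortex before most synapses form.

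After filtering, 9807 nuclei with 41494717 UMIs (unique molecular identifiers, the molecules counted) remained in the NCKO-labelled and 6130 nuclei with 26824201 UMIs in the F/F-labelled library. The median nucleus held 3580 UMIs (NCKO) and 3669.5 UMIs (F/F), and 15 barcodes occurred in both libraries. Men1 RNA was no lower in that labelled MEN1-NCKO, with 13.5 CPM (the gene's UMIs per 1000000 UMIs of the library) there and 10.4 CPM in the F/F-labelled library, a ratio of 1.31 (95% interval 1.13 to 1.51). Tags from the 3' end check nothing where the deleted part lies elsewhere in the gene, so the libraries are named by their labels throughout. Xist stood at 2653 CPM (NCKO) and 2551 CPM (F/F), and no Y-linked gene looked at had over 16 UMIs in either library. The label's protocol speaks of male mice and gives no sex of the embryos. Nuclei were clustered without the 33 genes and named by markers, which gave 11 classes of 100 or more nuclei per library. Markers of striatal and eminence cells were present beside cortical ones, although the tissue label reads cortex.

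The starts of 3 genes on which the comparisons below turn are shown first, each from 250 bases before to 50 bases after the transcript start. Lrrtm3, Il1rapl2 and Cntnap2 were higher by 1.5-fold or more in the NCKO-labelled library in at least 5 classes each. Cntnap5a was so too and has no entry in the promoter table. Sequences are from RefSeq on GRCm38.p6, 5′ to 3′ on the gene's own strand, and 24 of the 33 genes had an entry. Capitals mark GGGCGG, a GC box, on the printed strand. The windows are chr10:64090206-64090505 (minus strand), chrX:137570504-137570803 (plus strand) and chr6:45059811-45060110 (plus strand).
Lrrtm3: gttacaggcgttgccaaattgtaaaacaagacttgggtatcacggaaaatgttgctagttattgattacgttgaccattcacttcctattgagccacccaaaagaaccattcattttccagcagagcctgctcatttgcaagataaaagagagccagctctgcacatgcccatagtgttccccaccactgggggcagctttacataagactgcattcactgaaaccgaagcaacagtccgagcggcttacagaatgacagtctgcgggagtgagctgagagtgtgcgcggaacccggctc
Il1rapl2: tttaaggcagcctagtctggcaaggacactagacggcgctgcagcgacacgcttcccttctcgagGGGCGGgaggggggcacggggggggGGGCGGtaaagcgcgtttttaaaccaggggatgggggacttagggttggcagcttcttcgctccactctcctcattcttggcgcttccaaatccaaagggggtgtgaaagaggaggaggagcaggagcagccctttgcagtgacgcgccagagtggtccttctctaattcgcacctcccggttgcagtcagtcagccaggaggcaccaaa
Cntnap2: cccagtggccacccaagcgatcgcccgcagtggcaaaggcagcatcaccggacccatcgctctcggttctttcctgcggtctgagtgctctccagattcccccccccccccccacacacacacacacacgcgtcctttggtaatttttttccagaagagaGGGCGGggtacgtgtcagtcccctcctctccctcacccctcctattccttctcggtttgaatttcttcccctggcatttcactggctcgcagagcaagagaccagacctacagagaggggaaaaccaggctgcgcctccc

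The Il1rapl2 window held 2 GC boxes and the Cntnap2 window 1, while these letters were not in the Lrrtm3 window on either strand. GGGCGG occurred on either strand in 35.7% of the 32851 promoters of the table. The letters TATAAA (in 13.6% of all promoters), CACGTG (7.15%) and CAGCTG (16.3%) were in none of the 3 windows. GC content was 48.7% for Lrrtm3, 60.3% for Il1rapl2 and 59.7% for Cntnap2, beside a median of 52.7% over all promoters. The RefSeq start used for Cntnap2 lies 704 bases from the gene's start in GENCODE, and it is 1 of 2 starts listed. These windows describe sequence, and no file here measures binding or methylation at them.

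Over all nuclei, the largest ratios among the 33 were those of a pair of contactin-associated genes, both higher in the NCKO-labelled library. Cntnap2, which encodes CASPR2, an organiser of potassium channels on axons, had 1528 CPM in the NCKO-labelled library (95% interval 1516 to 1539.9) and 1002 CPM in the F/F-labelled library (990.2 to 1014). Its ratio of levels was 1.52 (1.5 to 1.55), from 63403 UMIs (NCKO) and 26883 UMIs (F/F). Cntnap5a, a less studied relative, had 564 CPM in the NCKO-labelled library (95% interval 557 to 572) and 359 CPM in the F/F-labelled library (352 to 366), a ratio of 1.57 (1.54 to 1.61). The intervals of the libraries do not overlap for either gene. All intervals here cover counting error only, not the spread between embryos or libraries.

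These were the 2 of 33 genes that were higher by 1.5-fold or more over all nuclei, where 0.413% of all genes were. Both span over 200 kb, and of all genes over 200 kb 1.72% were higher and 1.82% lower. None of the 33 was lower by that size, against 0.751% of all genes. Ratios called log2 are of CPM + 5, NCKO-labelled over F/F-labelled library, and the 5 draws those of low genes towards 0. Measured means 50 UMIs or more over both libraries, and 1.5-fold is read on the same CPM + 5 scale. The median of the 33 log2 ratios was 0.046, beside 0.018 for all genes, and 22 were above 0. All 5 Cntnap genes were above 0, from 0.18 to 0.65, and so were all 4 teneurins, from 0.055 to 0.26. The neurexins lay at -0.14 (Nrxn2) and -0.13 (Nrxn3), and the 3 phosphatases between -0.065 and 0.00969. The lowest ratio was that of Flrt1, at -0.51. A level over all nuclei also moves with the make-up of the library, so the classes are described next.

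**Figure D1:**
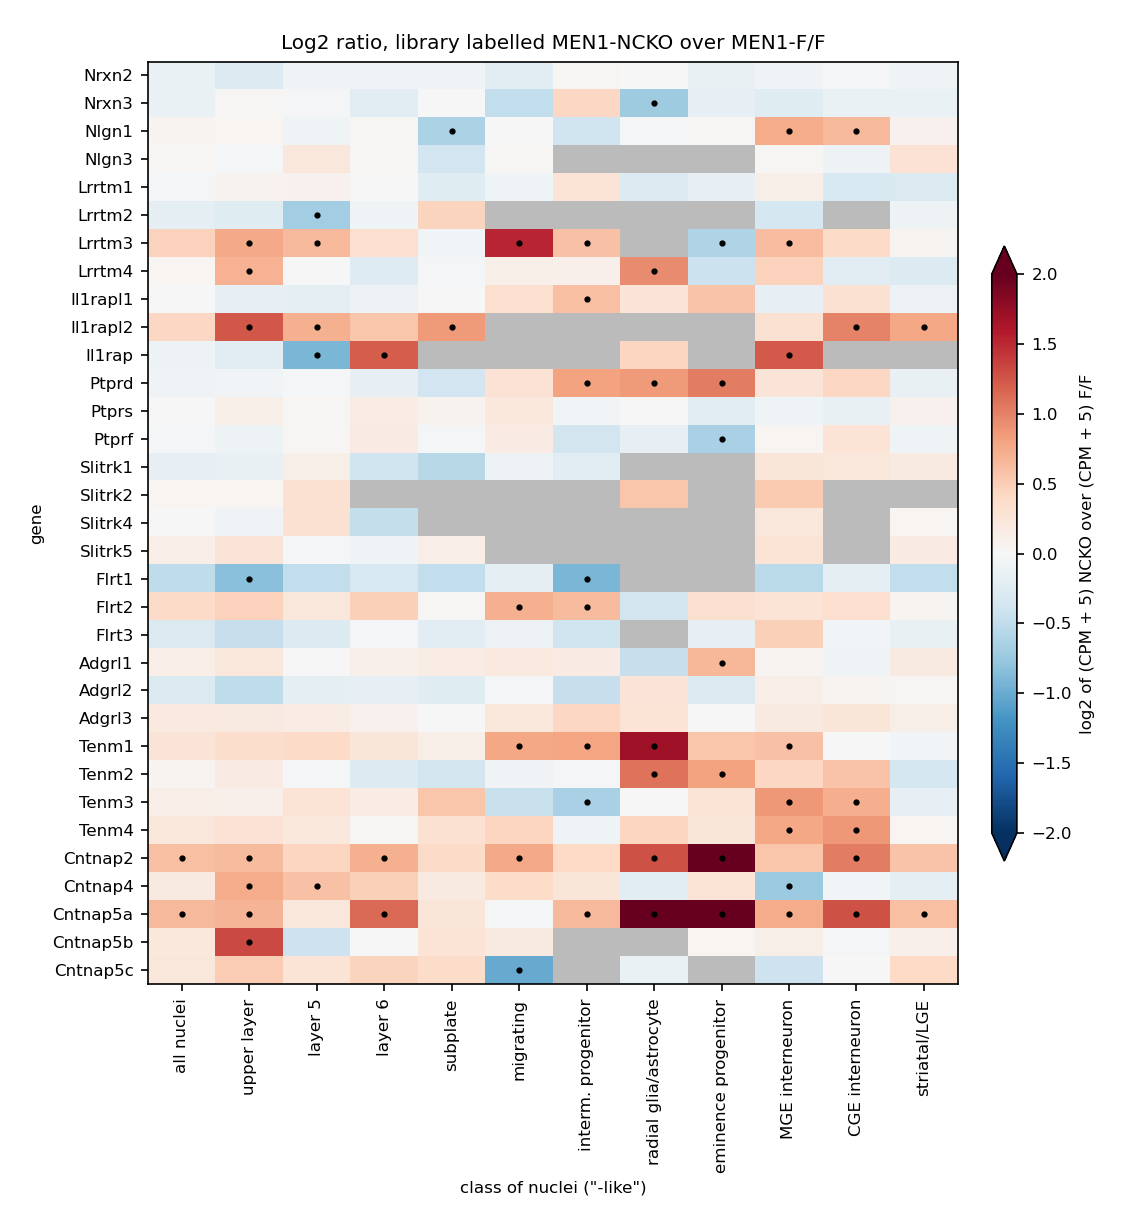
Log2 ratio of level, the library labelled MEN1-NCKO over the one labelled MEN1-F/F, of 33 synaptic adhesion genes (rows) over all nuclei and in 11 classes (columns). Red is higher and blue lower in the NCKO-labelled library, grey marks under 50 UMIs, and dots mark 1.5-fold or more. The Cntnap2 row is red in every column, from 0.38 in subplate-like to 2.65 in eminence progenitor-like nuclei, and the Flrt1 row is blue wherever it was measured.

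Of the 33 genes, 21 had their highest level in the same class in both libraries, as the map of levels by class shows. Nrxn3 was highest in CGE-derived interneuron-like nuclei (from the caudal ganglionic eminence), at 25696 CPM (NCKO) against 28271 CPM (F/F), from 29487 UMIs (NCKO) and 19904 UMIs (F/F), a ratio of 0.909 (0.893 to 0.925). It was lowest in migrating excitatory neuron-like nuclei, at 189 CPM (NCKO) against 269 CPM (F/F). Microglia-like nuclei, which should lack neurexins, held 677 CPM (NCKO) against 1507 CPM (F/F). Nrxn3 levels in upper-layer-like nuclei, 452 CPM (NCKO) against 442 CPM (F/F), and in migrating nuclei lay below that mark. They cannot be told apart from background. The mark rests on 44 (NCKO) and 22 (F/F) nuclei, whose median depth was below that of upper-layer-like nuclei.

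Over all nuclei Ptprd had the highest level of the 33, at 11214 CPM (NCKO) against 11727 CPM (F/F), followed by Tenm2, at 7841 CPM (NCKO) against 7547 CPM (F/F). Within classes, Ptprd reached 21276 CPM (NCKO) against 23864 CPM (F/F) in layer 6-like nuclei, below Nrxn3 in CGE-derived interneuron-like nuclei. Ptprd and Tenm2 each span over 1000 kb, and per kb of gene the order changes. Over all nuclei the levels per kb were highest for Slitrk1, at 12.4 (NCKO) and 14.0 (F/F) CPM per kb, and for Flrt3, at 8.05 (NCKO) and 9.87 (F/F). They were lowest for Cntnap5c, at 0.287 (NCKO) and 0.244 (F/F), and Il1rapl2, at 0.301 (NCKO) and 0.226 (F/F) CPM per kb.

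**Figure D2:**
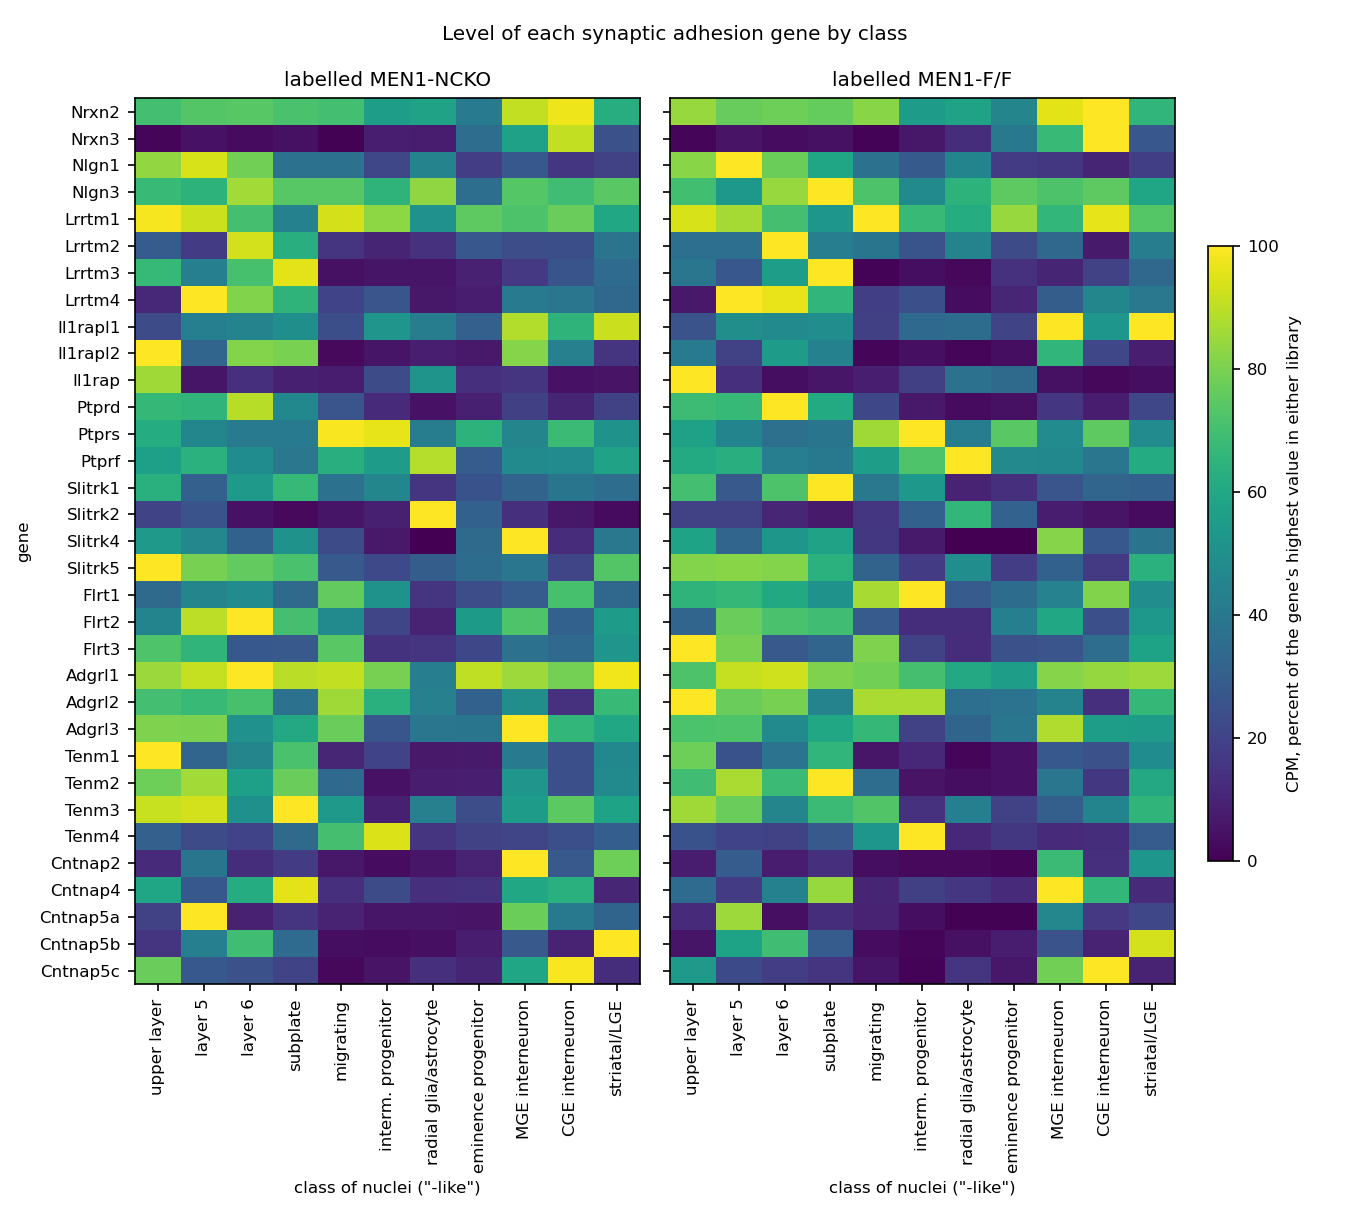
Level of each of the 33 genes in 11 classes of nuclei in the library labelled MEN1-NCKO (left) and the one labelled MEN1-F/F (right), in CPM as a percent of the gene's highest value in either library. The pattern over classes is much alike in both panels, with Nrxn3 brightest in CGE-derived interneuron-like nuclei, Ptprd in layer 6-like nuclei and Slitrk2 in radial glia or astrocyte-like nuclei.

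Upper-layer-like nuclei carry markers of late-born excitatory neurons. Among them, the genes higher by 1.5-fold in the NCKO-labelled library came from the Cntnap, Lrrtm and Il1rapl families. The class held 2040 (NCKO) and 1549 (F/F) nuclei with a median of 4131 UMIs (NCKO) and 4235 UMIs (F/F). All 33 genes were measured and 7 were higher by 1.5-fold or more, where 1.58% of all genes were. One, Flrt1, was lower by that size, where 2.61% of all genes were. The median log2 ratio of the 33 was 0.096, beside 0.011 for all genes.

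Il1rapl2, an X-linked relative of the postsynaptic receptor gene Il1rapl1, had 427 CPM in the NCKO-labelled library (95% interval 414 to 439.8) and 178 CPM in the F/F-labelled library (168 to 188). That is a ratio of 2.40 (2.26 to 2.56), from 4182 UMIs (NCKO) and 1326 UMIs (F/F). Cntnap5b had 122 CPM in the NCKO-labelled library (95% interval 115 to 129) and 45.8 CPM in the F/F-labelled library (41.1 to 51.0), a ratio of 2.65 (2.35 to 3.0), from 1193 UMIs (NCKO) and 342 UMIs (F/F). These were the 2 genes past 2-fold in this class. Lrrtm3, which encodes a postsynaptic leucine-rich repeat protein, stood at 515 CPM (NCKO) against 301 CPM (F/F), a ratio of 1.71 (1.63 to 1.80). Its relative Lrrtm4, a ligand of heparan sulfate proteoglycans, stood at 407 CPM (NCKO) against 248 CPM (F/F), and Cntnap4 at 275 CPM (NCKO) against 163 CPM (F/F). Cntnap5a had 307 CPM (NCKO) against 190.1 CPM (F/F) and Cntnap2 539 CPM (NCKO) against 345 CPM (F/F). For none of these 7 did the intervals of the libraries overlap. Without doublet removal the log2 ratio was 0.22 for Cntnap2 and 0.45 for Cntnap5a, and with all deposited barcodes it was 0.46 for Il1rapl2 and 0.48 for Lrrtm4, all under 1.5-fold. At clustering resolution 2, Lrrtm3, Il1rapl2 and Cntnap5b were past the fold and the others were not.

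The other measured genes of the class lay between -0.51 and 0.51 on the log2 scale. Adgrl2, a latrophilin, had 576 CPM (NCKO) against 822 CPM (F/F), Flrt3 had 244 CPM (NCKO) against 336 CPM (F/F), and Nlgn1, the neuroligin of excitatory synapses, had 4681 CPM (NCKO) against 4576 CPM (F/F). The summed level of the 12 upper-layer markers in the same nuclei was 6573 CPM (NCKO) against 8898 CPM (F/F). Subplate markers summed to 309 CPM (NCKO) against 207 CPM (F/F) and layer 5 markers to 2384 CPM (NCKO) against 2125 CPM (F/F), with 0 (NCKO) and 1 (F/F) of the 9 subplate markers at 0. Oligodendrocyte precursor markers summed to 418 CPM (NCKO) against 264 CPM (F/F) and markers of CGE-derived interneurons to 293 CPM (NCKO) against 214 CPM (F/F). Other sets were lower in the NCKO-labelled library. Striatal or LGE-derived neuron markers summed to 1496 CPM (NCKO) against 1930 CPM (F/F) and migrating excitatory neuron markers to 1667 CPM (NCKO) against 1939 CPM (F/F). Layer 6 markers summed to 1581 CPM (NCKO) against 1751 CPM (F/F). Their part in the ratios was not tested.

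The class spans 4 clusters, drawn without the 33 genes, which held different shares of it. Cluster 0, led by Nwd2 and Inhba, had 892 (NCKO) and 517 (F/F) nuclei, cluster 5, led by Cntnap5c and Ntf3, had 466 (NCKO) and 321 (F/F), cluster 7, led by Ccbe1, had 322 (NCKO) and 439 (F/F), and cluster 11, led by Ntf3 and Egfem1, had 360 (NCKO) and 272 (F/F). Cntnap5b was higher in the NCKO-labelled library in all 4, with log2 ratios of 0.94 (cluster 0), 1.78 (5), 0.94 (7) and 1.52 (11). The last 2 rest on 24 UMIs (NCKO) and 14 UMIs (F/F) and on 48 UMIs (NCKO) and 9 UMIs (F/F).

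Il1rapl2 had 726 CPM (NCKO) against 284 CPM (F/F) in cluster 0 and 60.0 CPM (NCKO) against 14.0 CPM (F/F) in cluster 11, while cluster 5 had 287 CPM (NCKO) against 277 CPM (F/F) and cluster 7 22.1 CPM (NCKO) against 16.0 CPM (F/F). The libraries thus lay apart in clusters 0 and 11 and close together in cluster 5. Cntnap2 differed mainly in cluster 5, at 873 CPM (NCKO) against 299 CPM (F/F), and cluster 0 had 494 CPM (NCKO) against 468 CPM (F/F). Lrrtm3 was above 0 in all 4, between 0.44 and 0.54, and none of these reached 1.5-fold. Flrt1 was lower in all 4, from -0.95 in cluster 7 to -0.60 in cluster 0. Where each cluster counted by its share of the F/F-labelled nuclei, the log2 ratio of the class was 0.99 for Il1rapl2, 1.11 for Cntnap5b, 0.62 for Cntnap2 and 0.52 for Lrrtm3. The last is under 1.5-fold.

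**Figure D3:**
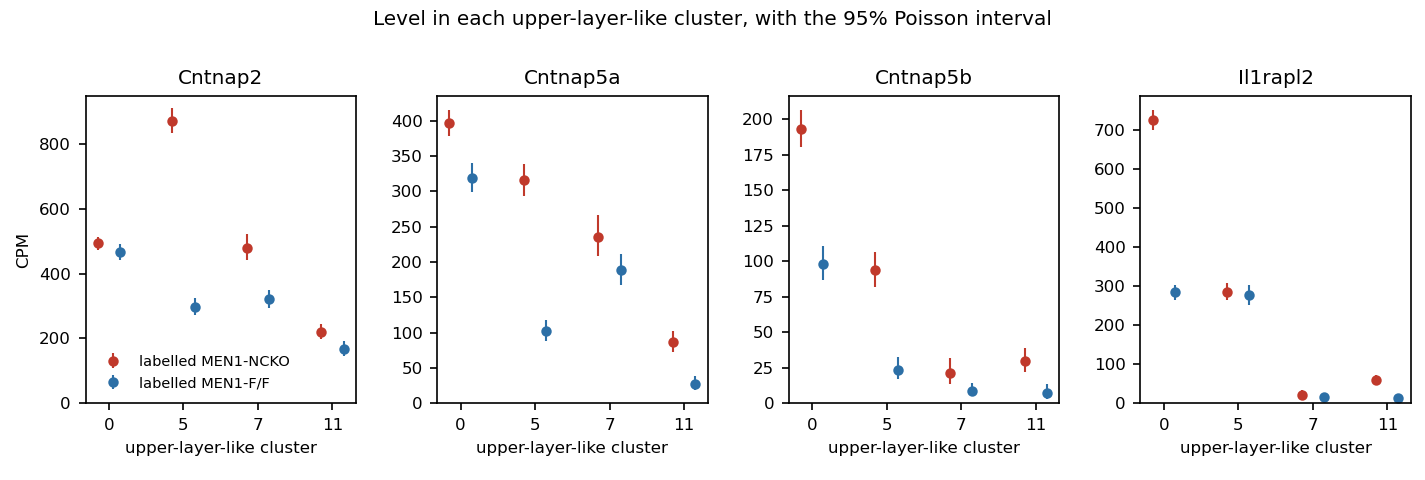
Level in CPM, with its 95% Poisson interval, of Cntnap2, Cntnap5a, Cntnap5b and Il1rapl2 in the 4 upper-layer-like clusters. Red points are the library labelled MEN1-NCKO and blue points the one labelled MEN1-F/F. The Cntnap2 points are far apart in cluster 5 and close together in cluster 0, and those of Il1rapl2 are far apart in cluster 0 and overlap in cluster 5.

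Across classes, Cntnap2 was higher in the NCKO-labelled library throughout. Among the 20 genes measured in all 11 classes it was the only one above 0 in each of them, and none was below 0 in each. Of 2949 genes in the tables measured in all classes, 5.56% were above 0 and 4.68% below 0 in each. In 6 classes it was higher by 1.5-fold or more. Among the 11 classes its levels were highest in MGE-derived interneuron-like and striatal nuclei, with 4376 CPM (NCKO) against 2988 CPM (F/F) in MGE-derived interneuron-like nuclei (from the medial ganglionic eminence) and 3404 CPM (NCKO) against 2297 CPM (F/F) in striatal or LGE-derived neuron-like nuclei. CGE-derived interneuron-like nuclei had 1229.6 CPM in the NCKO-labelled library (95% interval 1166 to 1295) and 602 CPM in the F/F-labelled library (546 to 662).

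Among deep-layer neurons, Cntnap2 had 567 CPM (NCKO) against 343 CPM (F/F) in layer 6-like, 1707 CPM (NCKO) against 1265 CPM (F/F) in layer 5-like and 780.2 CPM (NCKO) against 600.2 CPM (F/F) in subplate-like nuclei. Migrating excitatory neuron-like nuclei had 285 CPM (NCKO) against 168 CPM (F/F). The largest ratio was in eminence progenitor-like nuclei, at 415 CPM (NCKO) against 62.2 CPM (F/F), a ratio of 6.68 (4.47 to 10.4) from 233 UMIs (NCKO) and 27 UMIs (F/F). In those nuclei markers of MGE-derived interneurons summed to 2683 CPM (NCKO) against 1928 CPM (F/F) and markers of CGE-derived interneurons to 3343 CPM (NCKO) against 2591 CPM (F/F). Markers of striatal or LGE-derived neurons were lower, at 4345 CPM (NCKO) against 4865 CPM (F/F). These lists share Gad1 and Gad2, and a sum of CPM is led by its most abundant genes, so single markers can go the other way. The part of these markers in the ratio was not tested. Radial glia or astrocyte-like nuclei had 270.5 CPM (NCKO) against 109.5 CPM (F/F) and intermediate progenitor-like nuclei 147 CPM (NCKO) against 109.9 CPM (F/F). Microglia-like nuclei, which should lack the gene, had 81.2 CPM (NCKO) against 102 CPM (F/F) from 9 UMIs (NCKO) and 7 UMIs (F/F), above the F/F-labelled level in eminence progenitor-like nuclei. Outside the 11 classes, Cajal-Retzius-like nuclei had a higher level still, 11749 CPM (NCKO) against 10051 CPM (F/F), but too few nuclei to be compared. In each of the 20 clusters where Cntnap2 was measured it was above 0, in 10 by 1.5-fold or more. No share of all genes was computed for clusters.

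With each nucleus thinned to 1000 UMIs, a UMI of Cntnap2 was found in 38.6% of nuclei (NCKO) against 27.2% (F/F). Without thinning these shares were 57.3% (NCKO) and 45.3% (F/F). In upper-layer-like nuclei the thinned shares were 23.6% of nuclei (NCKO) against 17.6% (F/F), unthinned 49.0% (NCKO) and 39.4% (F/F). CGE-derived interneuron-like nuclei gave 32.6% of nuclei (NCKO) against 13.9% (F/F), unthinned 43.6% (NCKO) and 24.3% (F/F). Thinning left out 68 nuclei (NCKO) and 33 nuclei (F/F) with fewer UMIs. Microglia-like nuclei gave 9.30% of nuclei (NCKO) against 13.6% (F/F), unthinned 18.2% (NCKO) and 18.2% (F/F), and their median depth was 2130.5 UMIs (NCKO) and 2717.5 UMIs (F/F).

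Cntnap5a was higher by 1.5-fold or more in 8 of the 11 classes. In 2 of the 8, radial glia or astrocyte-like and eminence progenitor-like nuclei, it passed the minimum of 50 UMIs only through the NCKO-labelled library. Its level was highest in layer 5-like nuclei, at 1574 CPM (NCKO) against 1341 CPM (F/F), where the ratio was 1.17 (1.12 to 1.23). CGE-derived interneuron-like nuclei had 635 CPM (NCKO) against 259 CPM (F/F), a ratio of 2.46 (2.09 to 2.91), and MGE-derived interneuron-like nuclei 1221 CPM (NCKO) against 726 CPM (F/F). Layer 6-like nuclei had 144 CPM (NCKO) against 63.0 CPM (F/F) and striatal or LGE-derived neuron-like nuclei 509 CPM (NCKO) against 334 CPM (F/F). The striatal ratio lay at the fold, between 0.57 and 0.70 (log2) over the alternatives, and that of MGE-derived interneuron-like nuclei was 0.39 where only F/F-labelled nuclei were clustered. Intermediate progenitor-like nuclei had 94.2 CPM (NCKO) against 58.6 CPM (F/F), from 68 UMIs (NCKO) and 40 UMIs (F/F), and their log2 ratio was -0.068 with all deposited barcodes in place of 0.64. Migrating excitatory neuron-like nuclei did not differ beyond counting error, at 148 CPM (NCKO) against 149.5 CPM (F/F), with a ratio of 0.988 (0.816 to 1.19).

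In 2 progenitor classes the F/F-labelled library held almost no Cntnap5a. Radial glia or astrocyte-like nuclei had 52 UMIs (NCKO) and 2 UMIs (F/F), a ratio of 13.7 (3.61 to 116), and eminence progenitor-like nuclei 46 UMIs (NCKO) and 5 UMIs (F/F), a ratio of 7.12 (2.84 to 23.0). Microglia-like nuclei had 18.1 CPM (NCKO) against 58.5 CPM (F/F), against 97.0 CPM (NCKO) against 7.07 CPM (F/F) in radial glia or astrocyte-like and 82.0 CPM (NCKO) against 11.5 CPM (F/F) in eminence progenitor-like nuclei. The 220 (NCKO) and 103 (F/F) radial glia or astrocyte-like nuclei were spread over 3 clusters, of which cluster 45, led by Gm29521, Otx2os1 and Tnc, held 79 (NCKO) and 18 (F/F). In the same nuclei, markers of migrating excitatory neurons summed to 1718 CPM (NCKO) against 798 CPM (F/F) and markers of CGE-derived interneurons to 6183 CPM (NCKO) against 5744 CPM (F/F). Markers of MGE-derived interneurons were lower, at 1919 CPM (NCKO) against 2264 CPM (F/F). So were those of striatal or LGE-derived neurons, at 2902 CPM (NCKO) against 3451 CPM (F/F). The interneuron and striatal markers in eminence progenitor-like nuclei are given above for Cntnap2. Their part in the ratios was not tested.

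The other Cntnap genes were less uniform. Cntnap4, known from GABA release and dopamine neurons, was higher in upper-layer-like nuclei and in layer 5-like nuclei, there at 127 CPM (NCKO) against 82.6 CPM (F/F). It was lower in MGE-derived interneuron-like nuclei, at 277 CPM (NCKO) against 464 CPM (F/F). Cntnap5b passed 1.5-fold in no class but the upper layer, and in striatal or LGE-derived neuron-like nuclei, where its level was highest, it had 791 CPM (NCKO) against 739 CPM (F/F). Cntnap5c was lower in migrating excitatory neuron-like nuclei, from 16 UMIs (NCKO) and 40 UMIs (F/F), and passed the fold nowhere else.

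**Figure D4:**
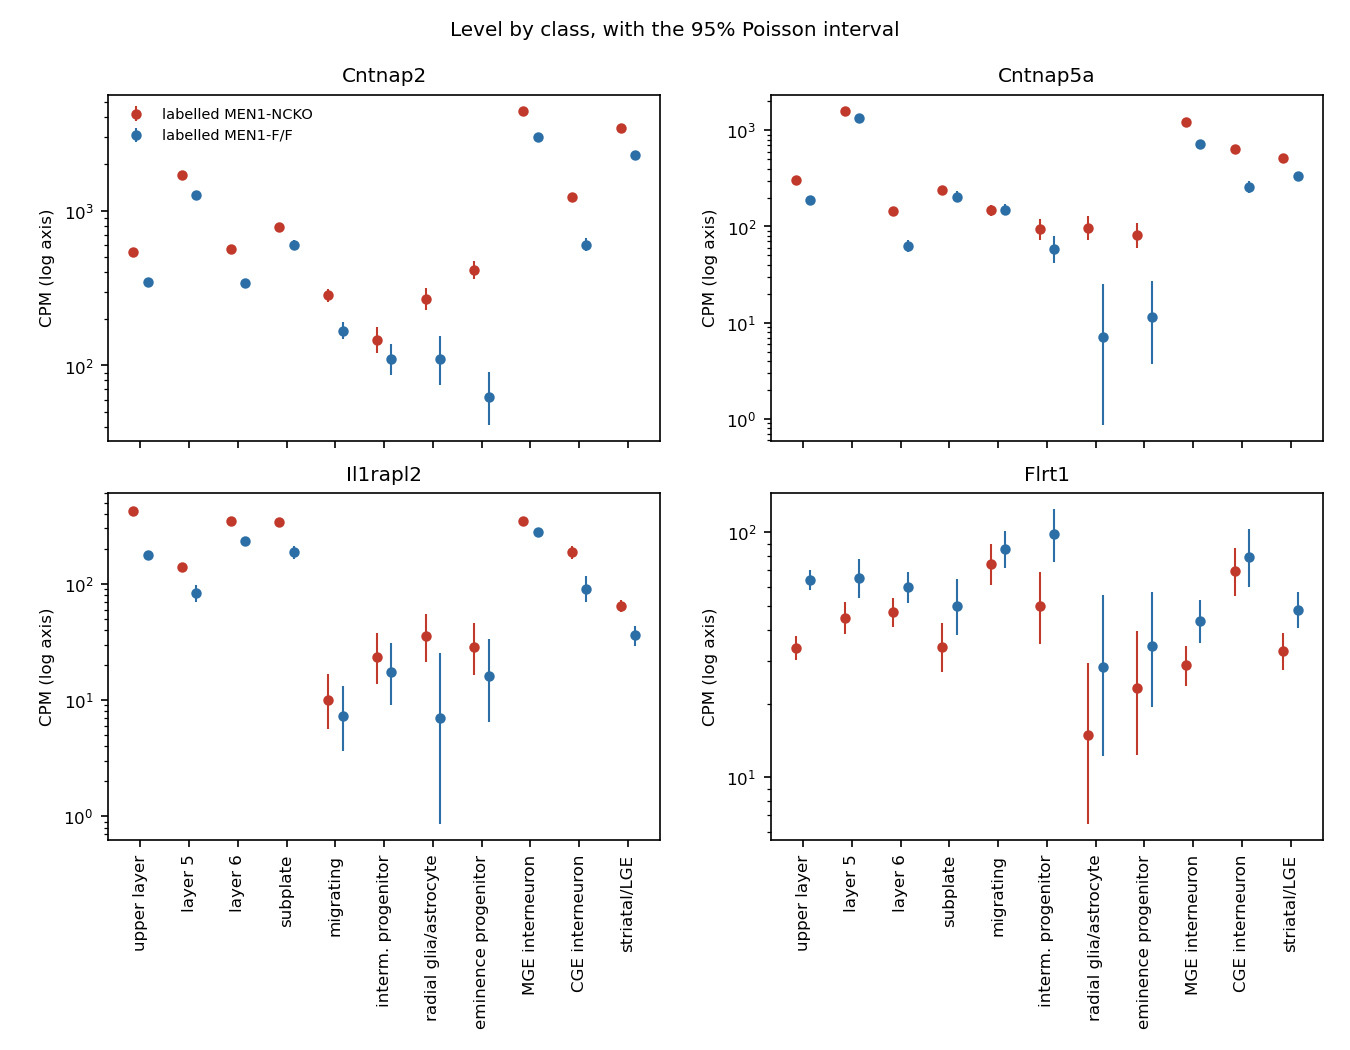
Level in CPM on a log axis, with its 95% Poisson interval, of Cntnap2, Cntnap5a, Il1rapl2 and Flrt1 in 11 classes. Red points are the library labelled MEN1-NCKO and blue points, to their right, the one labelled MEN1-F/F. Red lies above blue in every class for Cntnap2 and below blue in every class for Flrt1.

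Of the IL1RAPL genes, whose best known product Il1rapl1 is a dendritic partner of PTPRD, Il1rapl2 was above 0 in each of the 7 classes where it was measured and higher by 1.5-fold or more in 5. Besides the upper layer, subplate-like nuclei had 342 CPM (NCKO) against 187 CPM (F/F) and layer 5-like nuclei 139 CPM (NCKO) against 83.1 CPM (F/F). CGE-derived interneuron-like nuclei had 186 CPM (NCKO) against 90.9 CPM (F/F), and in striatal or LGE-derived neuron-like nuclei the log2 ratio was 0.77. Layer 6-like nuclei had 348 CPM (NCKO) against 235 CPM (F/F), under 1.5-fold. MGE-derived interneuron-like nuclei had 349 CPM (NCKO) against 280.4 CPM (F/F), also under 1.5-fold. Where only F/F-labelled nuclei were clustered, the subplate log2 ratio was -0.19 in place of 0.85. The gene peaked in upper-layer-like nuclei in the NCKO-labelled library and in MGE-derived interneuron-like nuclei in the F/F-labelled library. It lies at chrX:137570608-138846946 (GRCm38) and overlaps the coding gene Tex13a on the other strand. Il1rapl1, a gene of X-linked intellectual disability in humans, lay between -0.20 and 0.60, passed the fold in intermediate progenitor-like nuclei alone, and was highest in striatal or LGE-derived neuron-like nuclei, at 1927 CPM (NCKO) against 2096 CPM (F/F).

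Il1rap encodes the shared co-receptor of the interleukin-1 family, and its neuronal form binds PTPRD. It peaked in upper-layer-like nuclei, at 121 CPM (NCKO) against 140.5 CPM (F/F). In layer 6-like nuclei it had 88 UMIs (NCKO) and 16 UMIs (F/F), a ratio of 3.55 (2.07 to 6.49), and in MGE-derived interneuron-like nuclei 84 UMIs (NCKO) and 15 UMIs (F/F), a ratio of 3.38 (1.93 to 6.30). Layer 5-like nuclei went the other way, with 31 UMIs (NCKO) and 34 UMIs (F/F) and a ratio of 0.408 (0.243 to 0.685). These ratios rest on low counts. That of MGE-derived interneuron-like nuclei alone stayed past the fold under every alternative that gave a value, between 0.63 and 1.61 on the log2 scale.

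Of the LRRTM genes, Lrrtm3 passed the fold in most classes where it was measured. It was higher by 1.5-fold or more in 5 of 10 classes measured and lower in 1. Its level was highest in subplate-like nuclei, where the libraries had 737 CPM (NCKO) against 769 CPM (F/F), a ratio of 0.958 (0.883 to 1.04). Layer 5-like nuclei had 332 CPM (NCKO) against 209 CPM (F/F) and MGE-derived interneuron-like nuclei 127 CPM (NCKO) against 80.8 CPM (F/F). In migrating excitatory neuron-like nuclei the ratio was 3.94 (2.11 to 7.91), from 51 UMIs (NCKO) and 13 UMIs (F/F), and in eminence progenitor-like nuclei 0.645 (0.413 to 1.0), from 40 UMIs (NCKO) and 48 UMIs (F/F). Lrrtm1 and Lrrtm2, ligands of neurexins, passed the fold once between them, Lrrtm2 in layer 5-like nuclei from 28 UMIs (NCKO) and 26 UMIs (F/F). Lrrtm4 was highest in layer 5-like nuclei, at 3605 CPM (NCKO) against 3595 CPM (F/F), and besides the upper layer it was higher in radial glia or astrocyte-like nuclei, at 237 CPM (NCKO) against 120.1 CPM (F/F). Without doublet removal that log2 ratio was -0.71 in place of 0.95.

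The neurexins were not higher by 1.5-fold in any class. Nrxn2 lay between -0.27 and 0.026 in all 11 classes. Nrxn3 passed 1.5-fold once, in radial glia or astrocyte-like nuclei, at 2285 CPM (NCKO) against 3748 CPM (F/F), and its log2 ratio there was 0.00994 with all deposited barcodes in place of -0.71. In the interneuron classes, where Nrxn3 is abundant, its log2 ratio was -0.24 (MGE-derived) and -0.14 (CGE-derived). In migrating excitatory neuron-like nuclei, at levels below those of microglia-like nuclei, it was -0.50. Of the 24 clusters where it was measured, Nrxn3 was above 0 in 5 and lower by 1.5-fold or more in 4, down to -2.58 in radial glia or astrocyte-like cluster 21, from 72 UMIs (NCKO) and 305 UMIs (F/F). Nlgn3, the X-linked neuroligin, passed the fold in none of 8 classes measured.

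Nlgn1 was highest in layer 5-like nuclei, with 5231 CPM (NCKO) against 5576 CPM (F/F), and lowest in CGE-derived interneuron-like nuclei in both libraries. In both interneuron classes it was higher in the NCKO-labelled library, at 1534 CPM (NCKO) against 912 CPM (F/F) in MGE-derived and 892 CPM (NCKO) against 568 CPM (F/F) in CGE-derived interneuron-like nuclei. The first rests on 5891 UMIs (NCKO) and 2111 UMIs (F/F), a ratio of 1.68 (1.60 to 1.77). Without doublet removal the log2 ratios were 0.48 (MGE-derived) and 0.26 (CGE-derived), under the fold. Markers of migrating excitatory neurons summed to 2601 CPM (NCKO) against 1663 CPM (F/F) in MGE-derived and 2314 CPM (NCKO) against 1561 CPM (F/F) in CGE-derived interneuron-like nuclei. Other excitatory markers went both ways. Upper-layer markers summed to 3019 CPM (NCKO) against 3400 CPM (F/F) in MGE-derived and 1449 CPM (NCKO) against 1268 CPM (F/F) in CGE-derived ones. Layer 6 markers summed to 1223 CPM (NCKO) against 1100 CPM (F/F) in MGE-derived and 1384 CPM (NCKO) against 1804 CPM (F/F) in CGE-derived ones. Their part in these ratios, and in those of Tenm3 and Tenm4 in the same classes, was not tested. Subplate-like nuclei had less Nlgn1 in the NCKO-labelled library, at 2107 CPM (NCKO) against 3278 CPM (F/F). Where only F/F-labelled nuclei were clustered and the others took the class of their nearest ones, the subplate log2 ratio was 0.040 in place of -0.64. Microglia-like nuclei held 271 CPM (NCKO) against 497 CPM (F/F) of Nlgn1.

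Ptprd, the receptor for several of these postsynaptic proteins, had log2 ratios of -0.048 in upper-layer-like and -0.037 in layer 5-like nuclei. It was higher in 3 progenitor classes. Intermediate progenitor-like nuclei had 2858 CPM (NCKO) against 1640.5 CPM (F/F), eminence progenitor-like nuclei 2105 CPM (NCKO) against 1032 CPM (F/F) and radial glia or astrocyte-like nuclei 1192 CPM (NCKO) against 657 CPM (F/F). The first comes from 2062 UMIs (NCKO) and 1120 UMIs (F/F), a ratio of 1.74 (1.62 to 1.88). Microglia-like nuclei had 2220.5 CPM (NCKO) against 2883 CPM (F/F). All of these levels except the NCKO-labelled one in intermediate progenitor-like nuclei were below that mark and cannot be told apart from background. In radial glia or astrocyte-like nuclei the log2 ratio of Ptprd was -0.21 without doublet removal, in place of 0.85. Ptprs was highest in migrating excitatory neuron-like (NCKO, 823 CPM) and intermediate progenitor-like nuclei (F/F, 832 CPM) and passed the fold in no class. Ptprf was lower once, in eminence progenitor-like nuclei, from 27 UMIs (NCKO) and 34 UMIs (F/F).

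The Slitrk genes, postsynaptic ligands of the same phosphatases, passed 1.5-fold in no class. They are short and low, and each was measured in 4 to 9 of the 11 classes. Slitrk2 was highest in radial glia or astrocyte-like nuclei, at 80.2 CPM in the NCKO-labelled library (95% interval 58.0 to 108) and 53.0 CPM in the F/F-labelled library (29.7 to 87.4), from 43 UMIs (NCKO) and 15 UMIs (F/F). Slitrk1 was highest in subplate-like nuclei, at 99.3 CPM (NCKO) against 148 CPM (F/F).

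The FLRT genes went different ways. Flrt2, whose protein binds latrophilins and UNC5 receptors, was above 0 in 10 of 11 classes and passed 1.5-fold in 2 of them. Migrating excitatory neuron-like nuclei had 297 CPM (NCKO) against 179.6 CPM (F/F) and intermediate progenitor-like nuclei 130.3 CPM (NCKO) against 82.0 CPM (F/F). The first comes from 443 UMIs (NCKO) and 269 UMIs (F/F), a ratio of 1.66 (1.42 to 1.93), and where only F/F-labelled nuclei were clustered its log2 ratio was 0.53, under the fold. Without doublet removal the second had a log2 ratio of 0.11 in place of 0.64. It was highest in layer 6-like nuclei of the NCKO-labelled and layer 5-like nuclei of the F/F-labelled library, where the libraries had 627 CPM (NCKO) against 448 CPM (F/F) and 565 CPM (NCKO) against 483 CPM (F/F). Flrt1 was below 0 in all 9 classes measured and in all 17 clusters measured, in 9 of them by 1.5-fold or more. It was not named by the rule of size and was chosen after its values were seen. Of genes measured in all 11 classes 4.68% were below 0 in each. No share of all genes was computed for genes measured in fewer classes or for clusters. In upper-layer-like nuclei Flrt1 had 33.8 CPM in the NCKO-labelled library (95% interval 30.2 to 37.6) and 63.9 CPM in the F/F-labelled library (58.3 to 69.9), a ratio of 0.528 (0.458 to 0.609), from 331 UMIs (NCKO) and 477 UMIs (F/F). Intermediate progenitor-like nuclei had 36 UMIs (NCKO) and 67 UMIs (F/F), a ratio of 0.508 (0.329 to 0.773). Both calls held under every alternative that gave a value. Log2 ratios lay between -0.90 and -0.64 in the upper layer and between -1.08 and -0.65 in the progenitors.

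The latrophilins, adhesion G protein-coupled receptors, passed 1.5-fold once, Adgrl1 in eminence progenitor-like nuclei from 77 UMIs (NCKO) and 37 UMIs (F/F). Adgrl2 was highest in upper-layer-like nuclei of the F/F-labelled library and was lower there in the NCKO-labelled library, at a log2 ratio of -0.51, from 5651 UMIs (NCKO) and 6134 UMIs (F/F), a ratio of 0.701 (0.676 to 0.727). In the 4 upper-layer-like clusters its log2 ratio ran from -0.58 in cluster 0 to -0.26 in cluster 5. Its level in CGE-derived interneuron-like nuclei was the lowest, at 116 CPM (NCKO) against 111 CPM (F/F). Adgrl3 was highest in MGE-derived interneuron-like nuclei, at 2404 CPM (NCKO) against 2118 CPM (F/F), and its ratios stayed between -0.00309 and 0.42.

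Of the 4 teneurins, the ligands of latrophilins, Tenm3 and Tenm4 were higher by 1.5-fold or more in both interneuron classes. In MGE-derived interneuron-like nuclei Tenm3 had 887 CPM (NCKO) against 483 CPM (F/F), Tenm4 689.6 CPM (NCKO) against 399 CPM (F/F) and Tenm1 638 CPM (NCKO) against 423 CPM (F/F). CGE-derived interneuron-like nuclei had 1199 CPM (NCKO) against 722 CPM (F/F) of Tenm3 and 794 CPM (NCKO) against 432 CPM (F/F) of Tenm4. In CGE-derived interneuron-like nuclei both calls held under every alternative. In MGE-derived ones all 3 lost it under at least 1, Tenm1 with log2 ratios between 0.17 and 0.66. Tenm1 was highest in upper-layer-like nuclei, at 1541 CPM (NCKO) against 1199.9 CPM (F/F), under 1.5-fold, and passed the fold in 4 classes, among them migrating excitatory neuron-like nuclei at 165 CPM (NCKO) against 94.1 CPM (F/F), a ratio of 1.75 (1.42 to 2.17), from 246 UMIs (NCKO) and 141 UMIs (F/F). It overlaps the coding gene Sh2d1a on the other strand. Tenm4 was highest in intermediate progenitor-like nuclei, where the libraries had 3099 CPM (NCKO) against 3277 CPM (F/F). Tenm2 passed 2-fold in radial glia or astrocyte-like nuclei, at 1089 CPM (NCKO) against 512 CPM (F/F), from 584 UMIs (NCKO) and 145 UMIs (F/F), a ratio of 2.13 (1.77 to 2.57). Both levels were below those in microglia-like nuclei, 2816 CPM (NCKO) against 3731 CPM (F/F). With all deposited barcodes the log2 ratio there was -0.060 in place of 1.08. Tenm2 levels in intermediate and eminence progenitor-like nuclei were below that mark too. In upper-layer-like cluster 5 Tenm2 was lower, at 5835 CPM (NCKO) against 10744 CPM (F/F), and in cluster 7 higher, at 5922 CPM (NCKO) against 3644 CPM (F/F).

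Of the 33 genes, 5 lie inside another gene on its opposite strand. They are Flrt1 in Macrod1 (chr19:7092001-7105729), Flrt3 in Macrod2, Lrrtm1 in Ctnna2, Lrrtm2 in Ctnna1 and Lrrtm3 in Ctnna3 (chr10:63928472-64090277, GRCm38). The sources used here do not give the strand setting of the counting, so UMIs of the inner and the outer gene cannot be told apart with certainty. In upper-layer-like nuclei Flrt1 was at -0.83 and Macrod1 at -0.72 on the log2 scale, Macrod1 with 89.9 CPM (NCKO) against 151 CPM (F/F). Lrrtm3 was at 0.77 and Ctnna3 at 0.61, Ctnna3 with 965 CPM (NCKO) against 629.8 CPM (F/F). Flrt3 was at -0.45 and Macrod2 at -0.50, and Lrrtm1 at 0.070 and Ctnna2 at 0.11. Lrrtm2 was at -0.24 and Ctnna1, a catenin gene, at -1.04. In 4 of these 5 pairs the log2 ratios of this class lay within 0.2 of each other, the exception being Lrrtm2. Migrating excitatory neuron-like nuclei differed, with Lrrtm3 at 1.52 and Ctnna3 at 0.78, and Flrt1 at -0.19 and Macrod1 at -0.49. Flrt3 and Lrrtm1 lay closer to their outer genes there. How often other pairs of genes lie as close was not computed. Whether shared reads set these values was not tested. Cntnap2, Cntnap5a and Cntnap5b overlap no other counted gene.

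**Figure D5:**
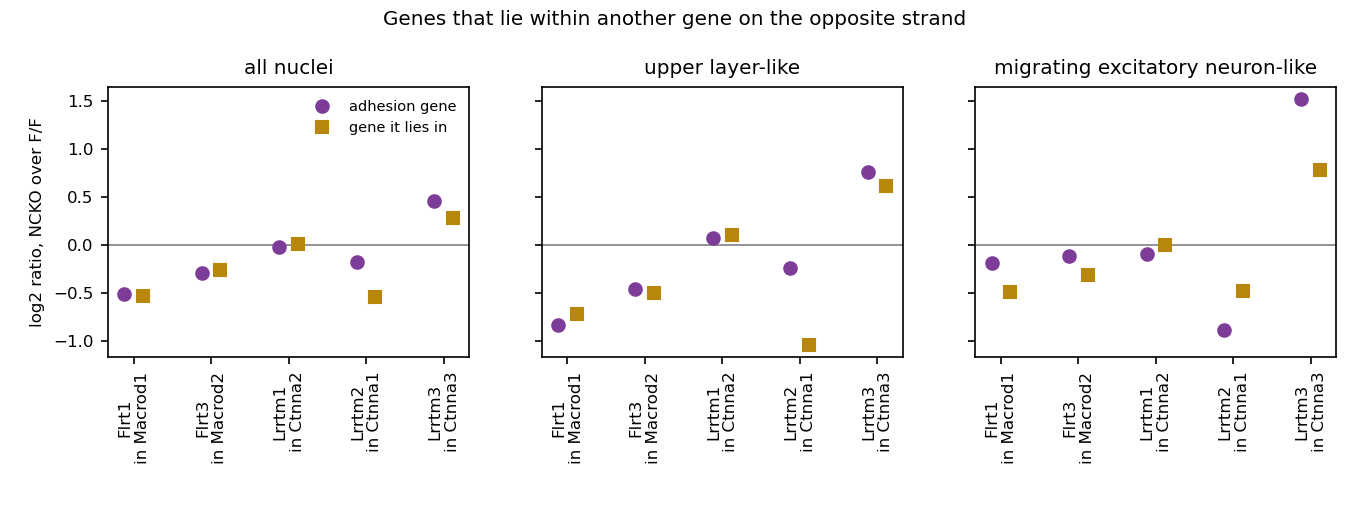
Log2 ratio, NCKO-labelled over F/F-labelled library, of 5 adhesion genes (circles) and of the gene each lies in (squares), over all nuclei and in 2 classes. Flrt1 and Macrod1 are both below 0, and Lrrtm3 and Ctnna3 both above 0, in all 3 panels.

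The number of genes past 1.5-fold varied with the class. In MGE-derived interneuron-like nuclei 7 of 33 measured genes were higher (3.11% of all genes) and Cntnap4 alone was lower (2.71%). CGE-derived interneuron-like nuclei had 6 of 28 higher (6.03% of all genes) and none lower (3.4%). Layer 6-like nuclei had 3 of 32 higher (2.96%), and striatal or LGE-derived neuron-like nuclei 2 of 31 (2.48%). Neither had any lower, where 2.37% (layer 6) and 2.08% (striatal) of all genes were. Layer 5-like nuclei had 3 higher (3.19%) and 2 lower (2.65%) of 33. Subplate-like nuclei, with 1 higher and 1 lower of 30, lay near the shares of all genes (5.16% and 3.74%). Median depth in layer 5-like nuclei was 5560.5 UMIs (NCKO) and 7036 UMIs (F/F), and in subplate-like nuclei 4505 UMIs (NCKO) and 6146.5 UMIs (F/F).

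Migrating excitatory neuron-like nuclei had 4 higher (4.61% of all genes) and 1 lower (5.04%) of 27. Intermediate progenitor-like nuclei had 6 higher (7.03%) and 2 lower (6.6%) of 24. Eminence progenitor-like nuclei had 5 higher (7.65%) and 2 lower (5.11%) of 23, and radial glia or astrocyte-like nuclei 6 higher (8.64%) and 1 lower (6.78%) of 23. These progenitor classes are the smallest, and genes that passed the minimum of 50 UMIs there only through the library where they are high count among the genes past the fold.

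The 11 classes gave 61 values past 1.5-fold in all. Of these, 19 stayed past the fold under each alternative that gave a value, the 2-fold threshold aside. They are Cntnap2 in 5 classes (layer 6, migrating excitatory neurons, CGE-derived interneurons, eminence progenitors and radial glia or astrocytes) and Cntnap5a in 4 of the same, migrating neurons being the exception. The others are Cntnap5b in the upper layer, Flrt1 in the upper layer and intermediate progenitors, and Lrrtm3 in migrating neurons and layer 5. Il1rapl2 in striatal and CGE-derived neurons, Il1rap in MGE-derived and Tenm3 and Tenm4 in CGE-derived interneurons complete them. An alternative without a value could not end a call, so the 19 were not tried equally. Cntnap5a had 7 alternatives with a value in eminence progenitors and 8 in radial glia or astrocytes. In both it passed the UMI minimum only through the NCKO-labelled library. Cntnap5b and Flrt1 in the upper layer had 13 each. No share of all genes was computed for calls that stayed. The log2 ratio of Cntnap2 lay between 0.67 and 0.97 in layer 6-like and between 0.87 and 1.29 in CGE-derived interneuron-like nuclei over the alternatives, and that of Cntnap5a between 0.88 and 1.18 and between 1.20 and 1.74 in the same classes. In 8 of the 61 the sign turned under at least 1 alternative.

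Many of the genes are long, and 16 of the 33 span over 200 kb. In upper-layer-like nuclei 7.30% of all genes over 200 kb were higher and 6.64% lower by 1.5-fold or more, more in both directions than among all genes. Their median log2 ratio was 0.00495. Of the 16 long adhesion genes, 6 were higher and none lower, with a median of 0.32. Other classes leaned either way, and the lean towards higher was clearest in 2. In CGE-derived interneuron-like nuclei 11.8% of all genes over 200 kb were higher and 3.51% lower, and 6 of 16 long adhesion genes were higher, which are all those higher in that class. Eminence progenitor-like nuclei had 18.4% of long genes higher and 3.39% lower, and 4 of 14 long adhesion genes higher. MGE-derived interneuron-like nuclei had 7.83% of long genes higher and 4.65% lower, and 5 of 16 long adhesion genes higher and 1 lower. Radial glia or astrocyte-like nuclei had 11.7% higher and 7.83% lower, and 6 of 14 long adhesion genes higher and 1 lower. In subplate-like nuclei 4.52% of long genes were higher and 8.42% lower. On the X chromosome lie 6 of the 33 (Nlgn3, Il1rapl1, Il1rapl2, Slitrk2, Slitrk4 and Tenm1), and the median of all X-linked genes was -0.052 in upper-layer-like nuclei.

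A list of 55 partner and scaffold genes of synaptic adhesion, other than the 33, was read alongside. Over all nuclei 54 were measured, 2 were higher (0.413% of all genes) and none lower (0.751%). Ntng1, which encodes netrin-G1, a presynaptic ligand, had 176 CPM (NCKO) against 107 CPM (F/F), a log2 ratio of 0.69. Cbln2, which encodes a secreted bridge to neurexins, had 11.1 CPM (NCKO) against 5.37 CPM (F/F), a log2 ratio of 0.63, and Sorcs2 69.2 CPM (NCKO) against 48.1 CPM (F/F), a log2 ratio of 0.48. The lowest were Mdga1 (-0.36), Ntng2 (-0.36) and Rims2 (-0.35). In upper-layer-like nuclei 51 were measured, and 6 were higher (1.58% of all genes) and 6 lower (2.61%) by 1.5-fold or more. Lrrc4c, the postsynaptic receptor of netrin-G1, had 2162 CPM (NCKO) against 1092 CPM (F/F), a log2 ratio of 0.98, Cbln2 20.7 CPM (NCKO) against 8.85 CPM (F/F), a log2 ratio of 0.89 and Cadm1 1062 CPM (NCKO) against 626 CPM (F/F), a log2 ratio of 0.76. The contactin gene Cntn4 had 219 CPM (NCKO) against 431 CPM (F/F), a log2 ratio of -0.96, Sorcs1 171 CPM (NCKO) against 317 CPM (F/F), a log2 ratio of -0.87 and Clstn2, a calsyntenin gene, 1122 CPM (NCKO) against 1893 CPM (F/F), a log2 ratio of -0.75. Among the scaffold genes of the list none was higher by 1.5-fold in that class, and 1 presynaptic and 1 postsynaptic one were lower.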

How the data were processed

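One single-nucleus RNA library labelled MEN1-NCKO and 1 labelled MEN1-F/F were analysed. The deposited tables hold raw UMI counts by gene and barcode. Per the file headers they come from Cell Ranger 6.1.0, and the submitters' processing notes name build mm10 and, without a role, Seurat. Counts of 10750 (NCKO) and 6477 (F/F) barcodes were used. Barcodes under 500 genes (19 NCKO, 10 F/F) or over 5% mitochondrial UMIs (0 NCKO, 1 F/F) were dropped. The highest simulated-doublet scores, 0.8% per 1000 barcodes, were removed (924 NCKO, 336 F/F).

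Both libraries were clustered together on 2000 variable genes without the 33 genes (18 would have been among them), 30 components, 20 neighbours and Leiden resolution 1 (Python 3.11.15, scikit-learn 1.9.0, leidenalg 0.10.2). Clusters were named from fixed marker lists by a rule settled after the clusters were seen, with radial glia and astrocytes as 1 class. The rule left clusters unnamed for a low score, a close next class, few raised markers, leading genes against the name, or low depth. Unnamed clusters held 1580 nuclei (NCKO) and 843 nuclei (F/F). Some marker sets summed higher in another class than in their own. Migrating neuron markers had 11045 CPM (NCKO) and 9821 CPM (F/F) in intermediate progenitor-like, 7329 CPM (NCKO) and 6649 CPM (F/F) in migrating nuclei. Subplate markers had 5677 (NCKO) and 5579 (F/F) CPM in layer 6-like, 3819 (NCKO) and 3913 (F/F) CPM in subplate-like nuclei. MGE-derived interneuron markers summed highest in CGE-derived ones. Sets naming the other classes summed highest in their own. For each library, the UMIs of a class were added up and scaled to CPM. Levels carry exact Poisson, ratios exact conditional binomial 95% intervals, for counting error only. The ratio, interval and thinning steps were tested on simulated data, and doublet scoring, clustering and naming were not. Positions are from GENCODE vM21, where 32241 of 33938 gene identifiers matched.

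Genes given in full passed 1.5-fold the same way in at least 3 classes, or 2-fold in a class with at least 100 UMIs, or had the widest range of their family. The genes, lists and rules were chosen with earlier results of these data known.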

Additional observations from a re-analysis of the deposited data

Results flagged for a closer look

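Past 1.5-fold in opposite directions in different classes were 5 genes. None of these differences between classes was tested, since there is 1 library per label. In each of the 5, at least 1 of the values below was under 1.5-fold under an alternative, and for Nlgn1, Tenm3 and Cntnap4 both were. Nlgn1 had a log2 ratio (NCKO-labelled over F/F-labelled library) of 0.75 in MGE-derived interneuron-like nuclei, from 5891 UMIs (NCKO) and 2111 UMIs (F/F), and of -0.64 in subplate-like nuclei, from 4817 UMIs (NCKO) and 3872 UMIs (F/F). Lrrtm3 stood at 1.52 in migrating excitatory neuron-like nuclei, from 51 UMIs (NCKO) and 13 UMIs (F/F), and at -0.60 in eminence progenitor-like nuclei, from 40 UMIs (NCKO) and 48 UMIs (F/F). For Il1rap the values were 1.23 in MGE-derived interneuron-like and -0.91 in layer 5-like nuclei, from 84 UMIs (NCKO) and 15 UMIs (F/F) and from 31 UMIs (NCKO) and 34 UMIs (F/F). Tenm3 was at 0.87 in MGE-derived interneuron-like and -0.64 in intermediate progenitor-like nuclei, the second from 103 UMIs (NCKO) and 154 UMIs (F/F). Cntnap4 was at 0.74 in upper-layer-like and -0.73 in MGE-derived interneuron-like nuclei, from 2699 UMIs (NCKO) and 1215 UMIs (F/F) and from 1063 UMIs (NCKO) and 1074 UMIs (F/F).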

How the results depend on the processing

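Over all nuclei the counts of genes past 1.5-fold kept within 1.5 times of their value under each alternative except a 2-fold threshold, with 0 higher. In upper-layer-like nuclei a 2-fold threshold left 2 higher and 0 lower, no doublet removal gave 3 lower, and clustering at resolution 2 gave 3 higher in place of 7. The causes were not tested.

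Where only F/F-labelled nuclei were clustered and the others took the class of their nearest ones, log2 ratios changed sign for Nlgn1 (0.040) and Il1rapl2 (-0.19) in subplate-like, Ptprd in radial glia or astrocyte-like (-0.28) and Tenm1 in intermediate progenitor-like nuclei (-0.31). With all deposited barcodes they did for Nrxn3 (0.00994) and Tenm2 (-0.060) in radial glia or astrocyte-like and Cntnap5a in intermediate progenitor-like nuclei (-0.068), and without doublet removal for Ptprd (-0.21) and Lrrtm4 (-0.71) in radial glia or astrocyte-like nuclei. Of the other log2 ratios recomputed, 1189 kept within counting error and 208 moved beyond it. Centring on genes of like length was chosen after seeing the data. No paired analysis was possible because the labels give no replicate numbers and there is 1 library per label. Depth limits the genes with under 50 UMIs in a class, and embryo-to-embryo spread cannot be seen.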
